A study of Mus musculus with 2 samples.

Results

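The genes described here encode the proteasome and the enzymes that attach ubiquitin to proteins or remove it. They were chosen by gene symbol alone: every probe set with 1 platform gene symbol of the numbered Psma to Psmg, Ube, Usp, Uba and Cul families or of the Uchl, Fbxo, Fbxw, Fbxl and Skp families. This gave 121 genes and 161 probe sets out of 8251 genes and 10855 probe sets with 1 symbol, after 1 Y-linked gene was left out. A further 5 probe sets carried a matching symbol together with other symbols and were not used. Of the 121 genes, 44 encode proteasome subunits, activators or assembly factors and 50 encode ubiquitin-conjugating (E2) or deubiquitinating enzymes. The remaining members are 2 activating (E1) enzyme genes, Ube3a, 6 cullin or Skp genes, 16 F-box protein genes, and 2 genes that match by their letters only: Psmc3ip, a meiotic recombination factor gene, and Psme3ip1, which encodes a binding partner of Psme3.

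RNA from Pax6-/- cerebral cortex was compared with RNA from wild type cortex, both from NMRI mouse embryos at embryonic day E14.5. There was 1 Affymetrix array for each genotype. The design text speaks of 3 embryos of each genotype, and pooling of their RNA on the array, the Pax6 allele and the dissection are details not given in the sources used here. With 1 array a group there is no replicate error and no test between genotypes, so every difference below is a difference between these 2 arrays.

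Proteins marked with a chain of ubiquitin are unfolded and degraded by the proteasome. Ubiquitin is activated by an E1 enzyme, passed to an E2 enzyme and placed on the substrate with the help of an E3 ligase, of which the cullin ligases with Skp1 and an F-box protein form a large family. The proteasome has a barrel-shaped 20S core, built of alpha and beta subunits, and a 19S regulatory particle, whose ATPase ring and lid receive and unfold the substrate. In the developing cortex this system turns over cell cycle regulators and neurogenic transcription factors.

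The deposited values are MAS5 signals on a linear scale. The brightest probe set, judged by mean log2 signal, stands for a gene. Log2 ratios are Pax6-/- over wild type, computed after adding a pseudocount of 81.5 and centred on the median of the probe sets above a signal filter of about 166, so that they understate differences of dim genes. Folds are on the same scale. Of the 121 members, 98 passed the filter, as did 5587 of all genes, and 15 of the 98 rest on a probe set with a suffix for shared or incomplete probes. Among the 98, 2 had a wild type signal and 1 a Pax6-/- signal under the filter level. Pax6 itself had a signal of 447 on the Pax6-/- array and 1169 on the wild type array, a log2 ratio of −1.29. Because the labels do not name the allele, this probe set may lie outside the altered part of the gene and then checks nothing.

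The spread between probe sets is the only error these arrays offer. Different probe sets for a gene varied with an SD of 0.56 in log2 ratio over 894 genes and of 0.38 among the bright ones, above a signal of 828. For the 21 members that could be compared in this way the SD was 0.47. The log2 ratios of the 98 members had an SD of 0.45. The members thus differed from each other about as much as probe sets of 1 member did. This technical spread holds nothing of the variation between embryos.

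Most proteasome genes had slightly lower signals on the Pax6-/- array, and the 19S particle was further below 0 than the 20S core. Over the 39 proteasome genes above the filter, 29 were below 0 and 10 above, with a median of −0.24; the log2 ratio of all 5587 genes had a median of −0.02, and 51.6% of them were below 0. The 39 E2 and deubiquitinating enzyme genes had nearly the same median, −0.21, with 24 below 0, 14 above and 1 at 0. The difference between those medians was −0.04, and no test of it is possible. Across all members, 62 of 98 were below 0.

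Few members passed a fixed fold. In all, 4 of the 98 members, or 4.08%, were at least 2-fold lower in Pax6-/- cortex, against 5.48% of all genes, and 0 were at least 2-fold higher, against 5.05%. Those 4 were Psma3, Psmb3, Psmd12 and Usp8. At 1.5-fold, 15 members, or 15.3%, were lower, against 15.1% of all genes, and 4, or 4.08%, were higher, against 14.1%. The lower counts are thus near the background of the arrays, and the shares on the higher side are under it. The shares of all genes were not matched for signal. With all genes in 10 equal groups by signal, their log2 ratios had an SD of 0.89 in the dimmest and 0.39 in the brightest. The part of signal level in the low shares on the higher side was not tested. Over all genes, 282 were at least 2-fold higher and 306 lower, while loess scaling gave 204 and 370 and quantile scaling 219 and 359.

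Signal level moved with these ratios. When all genes above the filter were put in 10 equal groups by signal, their median log2 ratio was 0.19 in the dimmest and −0.27 in the brightest. Of the 39 proteasome genes, 20, or 51.3%, had probe sets in the 2 brightest groups, where the median of all genes was −0.21 and that of the proteasome genes −0.30. For E2 and deubiquitinating enzyme genes the share in those groups was 30.8%. Loess scaling, which subtracts the trend with signal, left the proteasome median at −0.20 and the enzyme median at −0.11, with 25 of 39 and 23 of 39 genes below 0, against 50.9% of all genes. The part of signal level in the remaining difference was not tested.

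**Figure D1:**
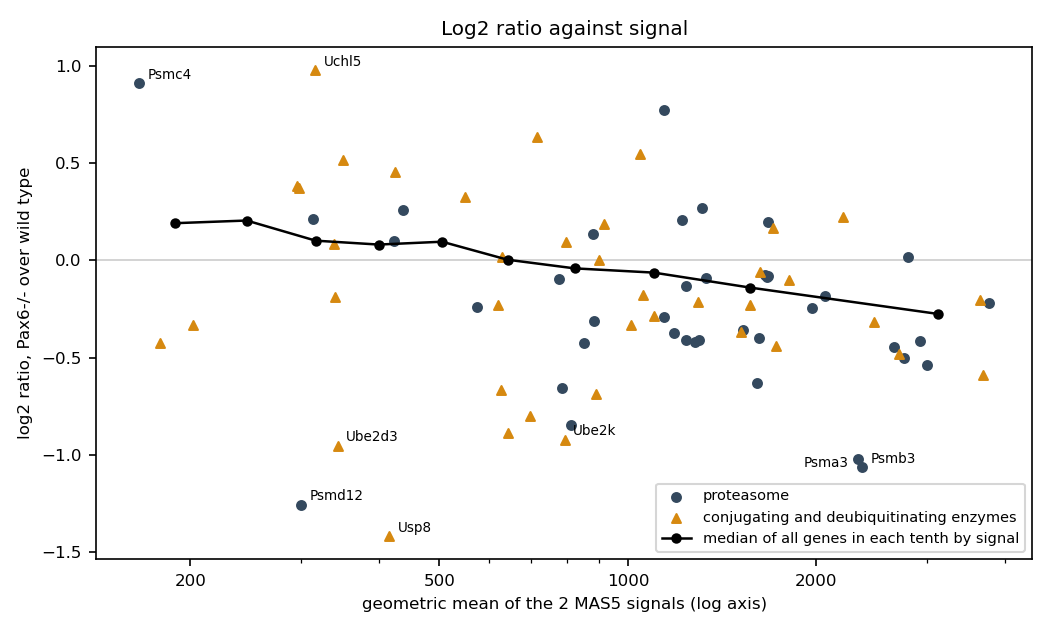
Log2 ratio (Pax6-/- over wild type) of the 39 proteasome genes (circles) and the 39 E2 and deubiquitinating enzyme genes (triangles) against the geometric mean of their MAS5 signals on a log axis; the black line joins the medians of all genes in 10 equal groups by signal. The line runs from 0.19 at the dim end to −0.27 at the bright end, and genes more than 0.9 from 0 are named.

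The upstream sequences of 4 proteasome genes are shown, the 3 that were at least 2-fold lower in Pax6-/- cortex and Psmc4, which had the highest log2 ratio of the proteasome genes. Each is the 250 bases before a transcription start in RefSeq's promoter table (GRCm38.p6), which for Psma3 lies inside the annotated span of the gene and for the other three at its edge: Psma3 at chr12:70974373-70974622, plus strand; Psmb3 at chr11:97703184-97703433, plus strand; Psmd12 at chr11:107479278-107479527, plus strand; Psmc4 at chr7:28050093-28050342, minus strand. Capitals mark matches, on either strand, to CCAAT, the core of the NF-Y site, or to TGACNNNGC, the core of the antioxidant response element through which the factor encoded by Nfe2l1 is known to act on proteasome genes.
Psma3: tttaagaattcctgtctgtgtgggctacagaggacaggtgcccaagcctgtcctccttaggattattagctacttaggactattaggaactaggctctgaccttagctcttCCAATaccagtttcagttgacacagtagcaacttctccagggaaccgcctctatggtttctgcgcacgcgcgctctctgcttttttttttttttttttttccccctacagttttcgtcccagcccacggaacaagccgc
Psmb3: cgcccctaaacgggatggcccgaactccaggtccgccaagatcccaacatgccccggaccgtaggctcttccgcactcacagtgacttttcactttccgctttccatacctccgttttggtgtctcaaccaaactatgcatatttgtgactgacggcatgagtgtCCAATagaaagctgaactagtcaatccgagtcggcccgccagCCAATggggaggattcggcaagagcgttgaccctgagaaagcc
Psmd12: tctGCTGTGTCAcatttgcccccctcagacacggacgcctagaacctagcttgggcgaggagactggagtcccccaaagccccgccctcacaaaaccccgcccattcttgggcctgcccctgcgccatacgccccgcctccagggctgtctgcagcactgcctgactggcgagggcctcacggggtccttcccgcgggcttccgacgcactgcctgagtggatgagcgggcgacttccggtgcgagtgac
Psmc4: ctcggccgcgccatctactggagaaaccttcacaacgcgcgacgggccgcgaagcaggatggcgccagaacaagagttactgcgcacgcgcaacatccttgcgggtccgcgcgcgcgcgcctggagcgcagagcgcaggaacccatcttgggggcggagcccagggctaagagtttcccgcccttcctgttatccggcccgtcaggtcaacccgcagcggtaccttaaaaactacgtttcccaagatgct
These windows hold 1 CCAAT for Psma3, 2 for Psmb3 and 0 for Psmd12 and Psmc4, and 1 TGACNNNGC, for Psmd12. Of 33 windows found for 31 of the 37 core and 19S particle genes, 15.2% held TGACNNNGC, against 10.2% of all 32851 windows, and 36.4% held CCAAT, against 33.8%. Windows of the E2 and deubiquitinating enzyme genes held TGACNNNGC in 14.3% and CCAAT in 23.8%. None of the 4 windows shown held both motifs. A match is a string of letters and not a bound site. The Nfe2l1 signal itself was 1104 in Pax6-/- cortex and 1528 in wild type cortex, a log2 ratio of −0.49.

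Alpha subunits form the outer rings of the 20S core and control entry to it. All 7 passed the filter, 6 of them below 0, with a median log2 ratio of −0.22, but only 4 were below 0 after loess scaling, where the median was −0.01. Psma3 had a signal of 1640.1 in Pax6-/- cortex and 3299.95 in wild type cortex, 2.03-fold lower. Its probe set carries a suffix for probes shared with related sequences, and no other Psma3 probe set was on the array. Psma2 was at 3551 in Pax6-/- and 4021 in wild type cortex, a log2 ratio of −0.22 that turned to 0.02 after loess scaling. Psma1 stood on the other side, at 495 in Pax6-/- and 386 in wild type cortex, a log2 ratio of 0.26. The other alpha genes were Psma6 at −0.50, Psma7 at −0.40, Psma4 at −0.18 and Psma5 at −0.09, the last turning to 0.05 after loess scaling.

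Beta subunits form the inner rings and hold the proteolytic sites. Of the 7 constitutive ones, 5 were below 0, with a median of −0.09. Psmb3, a non-catalytic subunit with a lone probe set, was at 1641 in Pax6-/- cortex and 3404 in wild type cortex, 2.09-fold lower. The 3 catalytic subunits differed little between the arrays. Psmb5, the chymotrypsin-like subunit, was at 1308 in Pax6-/- and 1353 in wild type cortex, a log2 ratio of −0.09 that turned to 0.01 after loess scaling and was 0.19 with its other probe set. Psmb6, the caspase-like one, was at a log2 ratio of −0.24. Psmb7, the trypsin-like one, was at 1472 in Pax6-/- and 1169 in wild type cortex, a log2 ratio of 0.27, from a lone probe set with the suffix for shared probes. Psmb4 was at 2862 in Pax6-/- and 2739.97 in wild type cortex, a log2 ratio of 0.02, and its other probe set above the filter gave −0.16. After loess scaling the median of the 14 core genes was 0.00, with 7 below 0 and 7 above, and the beta median turned to 0.01.

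Immunoproteasome subunits, which replace the catalytic ones in immune cells and after interferon, were below the filter on both arrays. Psmb8 had signals of 65.5 in Pax6-/- and 83.1 in wild type cortex, Psmb9 of 62.2 in Pax6-/- and 42.0 in wild type cortex, and Psmb10 of 100.1 in Pax6-/- and 109 in wild type cortex. These signals lie near the pseudocount, and no difference is read from them.

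Among the 18 genes named for the 19S particle above the filter, 16 were below 0, and the median was −0.41, or −0.28 after loess scaling, where 15 were below 0. Its median lay 0.21 below that of the 20S core, and 0.28 below it after loess scaling; no test of this difference is possible. The ATPases form the ring that threads substrates into the core, and 5 of 6 were below 0. Psmc1 was at 598 in Pax6-/- and 1100.4 in wild type cortex, a log2 ratio of −0.85. Psmc6 had a signal of 2308 in Pax6-/- and 3071 in wild type cortex, a log2 ratio of −0.45. The 3 Psmc3 probe sets were at −0.41, −0.73 and −0.07. Psmc2 was at −0.36 and Psmc5 at −0.09. Psmc4 was the exception, with a signal of 272 in Pax6-/- cortex and 101 in wild type cortex, a log2 ratio of 0.91. The wild type signal of Psmc4 was below the filter level, so this gene passed only through the Pax6-/- array, and the alternative settings gave log2 ratios between 0.53 and 1.39.

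All 8 measured subunits of the lid, a grouping made after the values were seen, were below 0, from −1.26 to −0.13, and remained below 0 after loess scaling, from −1.42 to −0.04, and after quantile scaling, from −1.37 to −0.05. Psmd12, a scaffold subunit of the lid, had a signal of 176 in Pax6-/- cortex and 514 in wild type cortex, 2.39-fold lower. Its only probe set carries the suffix for shared probes, and the alternatives gave log2 ratios between −1.60 and −0.87. Psmd8 was at −0.63. A narrow group followed, with Psmd7, Psmd13 and Psmd3 each at −0.42 and Psmd6 at −0.41. Psmd14, the metalloprotease that removes ubiquitin chains from the substrate as it enters, was at 798 in Pax6-/- and 976 in wild type cortex, a log2 ratio of −0.31. Psmd11 was at −0.13 with its brightest probe set, while the others were at 0.18 and −0.59. Outside the lid, the ubiquitin receptor gene Psmd4 was at 2523 in Pax6-/- and 3582 in wild type cortex, a log2 ratio of −0.54, and the base scaffold gene Psmd1 at −0.08, or 0.06 after loess scaling.

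Genes for factors that assemble the proteasome or bind its ends lay on both sides of 0. The 4 Psmg genes, Psmg1 to Psmg4, which encode 20S assembly chaperones and were also grouped after their values were seen, were above 0, with a median of 0.21, whereas Pomp, another 20S assembly factor gene that the symbol rule does not take in, was at 1711 in Pax6-/- and 1893 in wild type cortex, a log2 ratio of −0.19. After loess scaling Psmg1 was at −0.01 and the other three were above 0. Psmg3 had a signal of 1552 in Pax6-/- and 843 in wild type cortex, a log2 ratio of 0.78, from a probe set whose suffix marks relaxed probe selection, whereas its other probe set, below the filter, was at 0.20. Psmg4 was at 1339 in Pax6-/- and 1110.1 in wild type cortex. Psmd9, which by its name counts with the 19S genes but encodes an assembly chaperone of the ATPase ring, was at 1830.4 in Pax6-/- and 1532 in wild type cortex, a log2 ratio of 0.20, also from a relaxed probe set. Another such chaperone gene, Psmd5, was at −0.37. Psme1, a subunit of the PA28 activator, was at 621 in Pax6-/- and 991 in wild type cortex, a log2 ratio of −0.66, while the nuclear activator gene Psme3 was at 0.14 and Psme4 at −0.24. The part of signal level in these values was not tested.

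**Figure D2:**
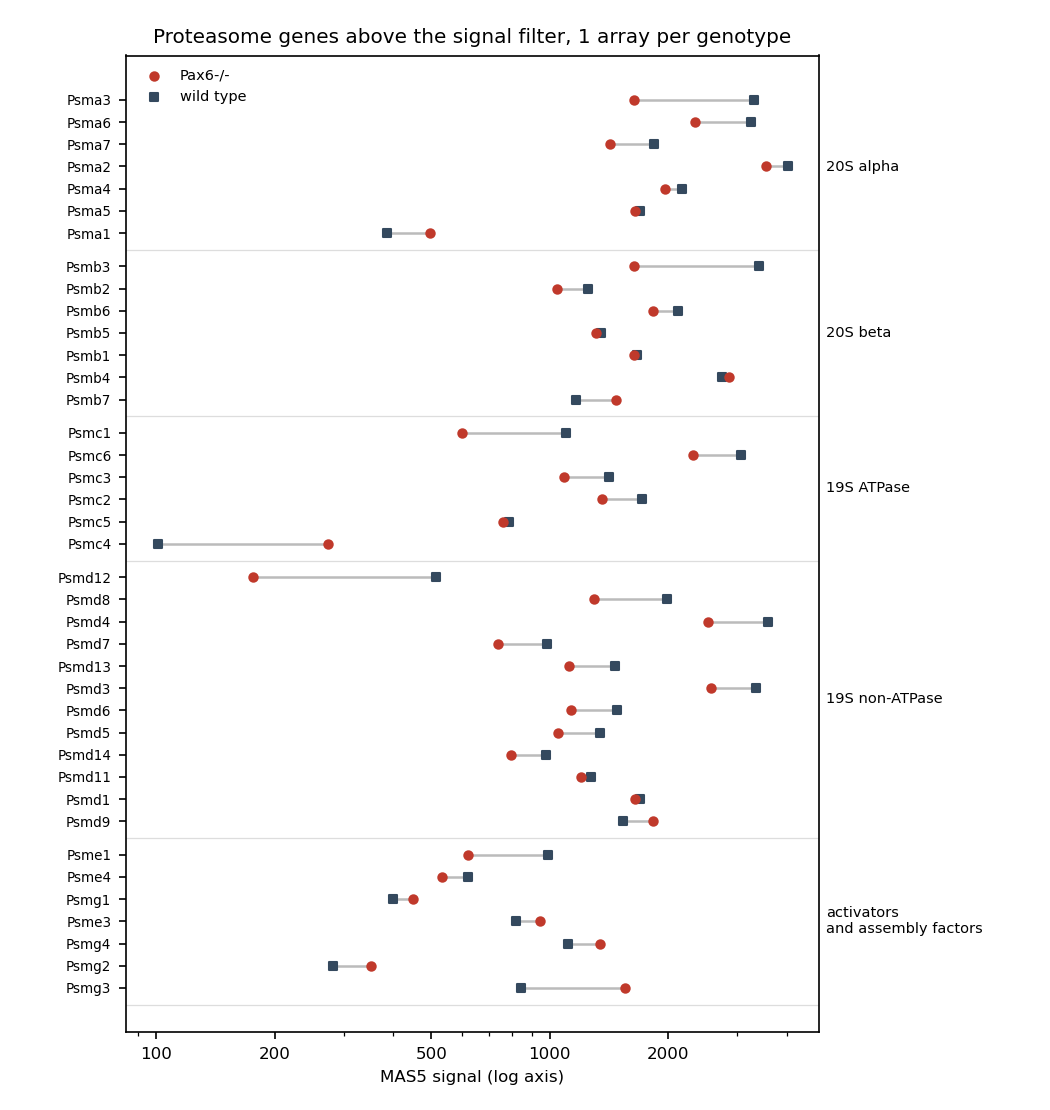
MAS5 signals (log axis) of the 39 proteasome genes above the filter on the Pax6-/- array (circles) and the wild type array (squares), grouped by class and ordered by log2 ratio within each class. In the 4 classes of core and 19S genes most circles lie left of their squares, with Psmc4 the widest pair the other way, and the 4 Psmg genes have their circles to the right.

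Activating enzymes were represented by 2 genes, both for ubiquitin-like modifiers. Uba3, the catalytic subunit that activates Nedd8, was at 733 in Pax6-/- and 594 in wild type cortex, a log2 ratio of 0.22. Uba7, which activates Isg15, was at 270.0 in Pax6-/- and 154 in wild type cortex, a log2 ratio of 0.53, with a wild type signal under the filter level.

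Most conjugating enzyme genes had lower log2 ratios than the median of all genes, by small amounts. Of 17 E2 genes above the filter, 14 were below 0 and 3 above, with a median of −0.33, or −0.28 after loess scaling with the same 14 to 3 count. At 1.5-fold, 5 of the 17 were lower and 1 was higher, against 15.1% and 14.1% of all genes. Ube2d3, a general-purpose E2 of RING ligases, was at 233 in Pax6-/- and 508 in wild type cortex, a log2 ratio of −0.95. It was past 2-fold in 3 of the 9 settings that measured it, the quantile, loess and no-pseudocount ones. Ube2g1 was at −0.89, Ube2b, which encodes a relative of yeast Rad6, at −0.80, and its close relative Ube2a at 0.08, or −0.06 after loess scaling.

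For 2 conjugating enzymes with low ratios the probe sets disagreed. The Ube2k probe sets gave signals of 567 in Pax6-/- against 1109 in wild type cortex and of 559 in Pax6-/- against 351 in wild type cortex, log2 ratios of −0.92 and 0.52. Those of Ube2d2a were at −0.69 and 0.37. Above the filter, Ube2o had −0.23 and −1.45, and Ube2h had −0.33 and −0.93, of the same sign. Among the rest, Ube2r2, which serves cullin ligases, was at 3452 in Pax6-/- and 3866 in wild type cortex, a log2 ratio of −0.21 that turned to 0.03 after loess scaling. The partners Ube2n and Ube2v1, which together build chains linked through lysine 63, were at −0.37 and −0.32.

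The E2 pair of the anaphase-promoting complex, the ligase that ends mitosis, split. Ube2c, which starts ubiquitin chains for it, was at 931 in Pax6-/- and 551 in wild type cortex, a log2 ratio of 0.63 from a lone probe set with the suffix for relaxed selection, whereas Ube2s, which lengthens them, was at 1495 in Pax6-/- and 1993 in wild type cortex, a log2 ratio of −0.44. Markers of dividing cells were higher beside Ube2c: 12 of 13 were above 0, with a median of 0.27, and their summed signal was 27862 in Pax6-/- and 22338 in wild type cortex. Their part in the Ube2c and Ube2s values was not tested. In bulk tissue fewer or more cells of a type and less or more RNA per cell cannot be told apart. Of 10 genes of the complex itself or its activators, 6 were below 0 and 4 above, with a median of −0.14, or 0.07 after loess scaling, and none passed 1.5-fold. Ube2f, an E2 of Nedd8, was at 446 in Pax6-/- and 276 in wild type cortex, a log2 ratio of 0.52.

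Deubiquitinating enzymes were centred on 0. Of 22 genes above the filter, 11 were above 0 and 10 below, with a median of 0.01, or 0.06 after loess scaling. The E2 median lay 0.34 below theirs, with and without loess scaling, and no test of this difference is possible. Usp9x, a large X-linked enzyme, had a signal of 914 in Pax6-/- and 883 in wild type cortex, and its probe set was the one at the centring median, so its log2 ratio is 0 by construction. Usp48 was at 0.09, while Usp10 at −0.06 and Usp1 at 0.02 turned to 0.08 and −0.01 after loess scaling.

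Usp8, which acts on receptors in endosomes, had the lowest log2 ratio of all members above the filter. Its signal was 235 in Pax6-/- and 736 in wild type cortex, 2.67-fold lower. It was past 2-fold in all 10 settings, with a log2 ratio of −1.52 after loess scaling. It was measured by 1 probe set, at a signal level where the technical spread of a probe set was 0.72. Uchl1, an abundant enzyme of neurons, was at 3042 in Pax6-/- and 4472 in wild type cortex, a log2 ratio of −0.59, or −0.35 after loess scaling. Of the neuronal markers, Map2 was at 489 in Pax6-/- and 1022 in wild type cortex, Dcx at a log2 ratio of −0.51 and Tubb3 at −0.25, which turned to 0.10 after loess scaling. Their part in the Uchl1 value was not tested. Usp24 was at 492 in Pax6-/- and 799.8 in wild type cortex, a log2 ratio of −0.67.

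At the other end, Uchl5 had a signal of 495 in Pax6-/- and 202 in wild type cortex, a log2 ratio of 0.98, just short of 2-fold, and from 0.67 to 1.24 over the alternatives. Uchl5, Usp14 and Psmd14 are the deubiquitinating enzymes that work on the proteasome, a grouping made after the values were seen, and the other two were at −0.19 and −0.31. Usp21 was at 0.55 and Usp15 at 0.45. The 3 Usp3 probe sets had the same sign, at −0.48, −0.22 and −0.61, and both Usp34 probe sets were above 0, at 0.22 and 0.15. The Usp7 probe sets disagreed, at −0.18 and 0.47.

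**Figure D3:**
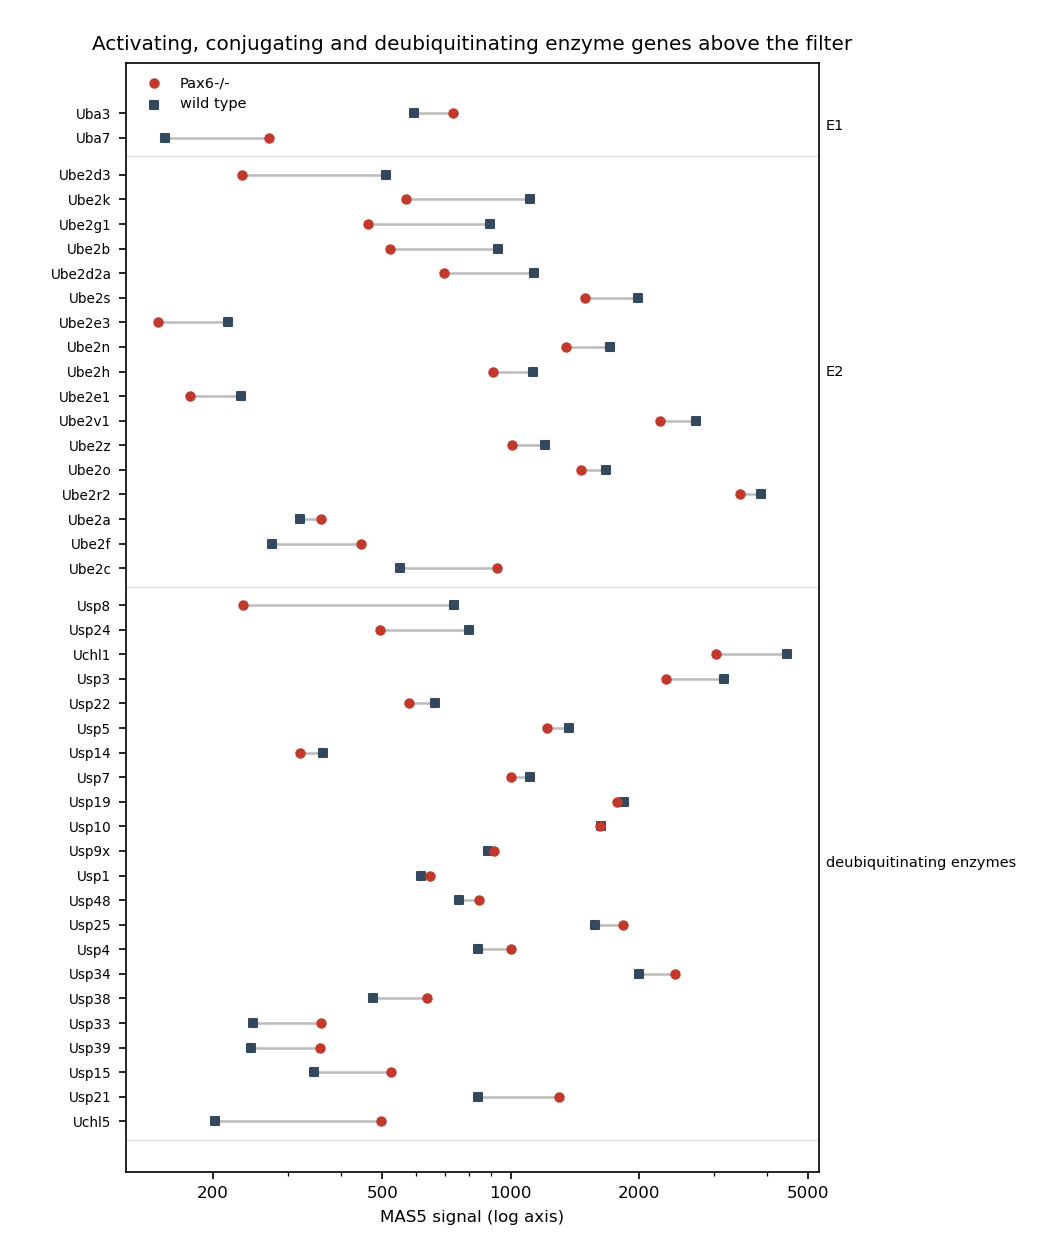
MAS5 signals (log axis) of the activating, conjugating and deubiquitinating enzyme genes above the filter on the Pax6-/- array (circles) and the wild type array (squares), ordered by log2 ratio within each class. Circles lie left of squares for 14 of 17 E2 genes, while the deubiquitinating enzymes run from Usp8 at −1.42 to Uchl5 at 0.98 with 10 below 0 and 11 above.

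Cullins are the scaffolds of a ligase family, and Skp1 joins Cul1 to F-box proteins. Cul1 had a signal of 1311 in Pax6-/- and 2352 in wild type cortex, a log2 ratio of −0.85, between −0.90 and −0.71 over the alternatives. Skp1 was at 793 in Pax6-/- and 916 in wild type cortex, a log2 ratio of −0.24. Cul3 was at 1002 in Pax6-/- and 789.8 in wild type cortex, a log2 ratio of 0.27, Cul4a at 0.12 and Cul2 at −0.36. Ube3a, a ligase of another family that is imprinted in neurons, was at 561 in Pax6-/- and 394 in wild type cortex, a log2 ratio of 0.39.

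F-box proteins choose the substrates of Cul1 ligases. Their 11 genes above the filter lay close together, from −0.34 for Fbxw2 to 0.37 for Fbxo9, with an SD of 0.26 and a median of 0.06, 6 above 0 and 5 below. None passed 1.5-fold. Fbxw7, which targets cyclin E and the Notch intracellular domain, was at 414 in Pax6-/- and 303 in wild type cortex, a log2 ratio of 0.32, although at this signal the spread between probe sets was 0.72. Fbxw5 was at −0.25 with its brightest probe set, which carries a suffix, whereas a dimmer probe set gave −1.88, with signals of 86.1 in Pax6-/- and 516 in wild type cortex. Both probe sets of Fbxw11 were below 0, at −0.17 and −0.34, and both of Fbxw4 were above 0, as were both of Fbxo3 that passed the filter.

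**Figure D4:**
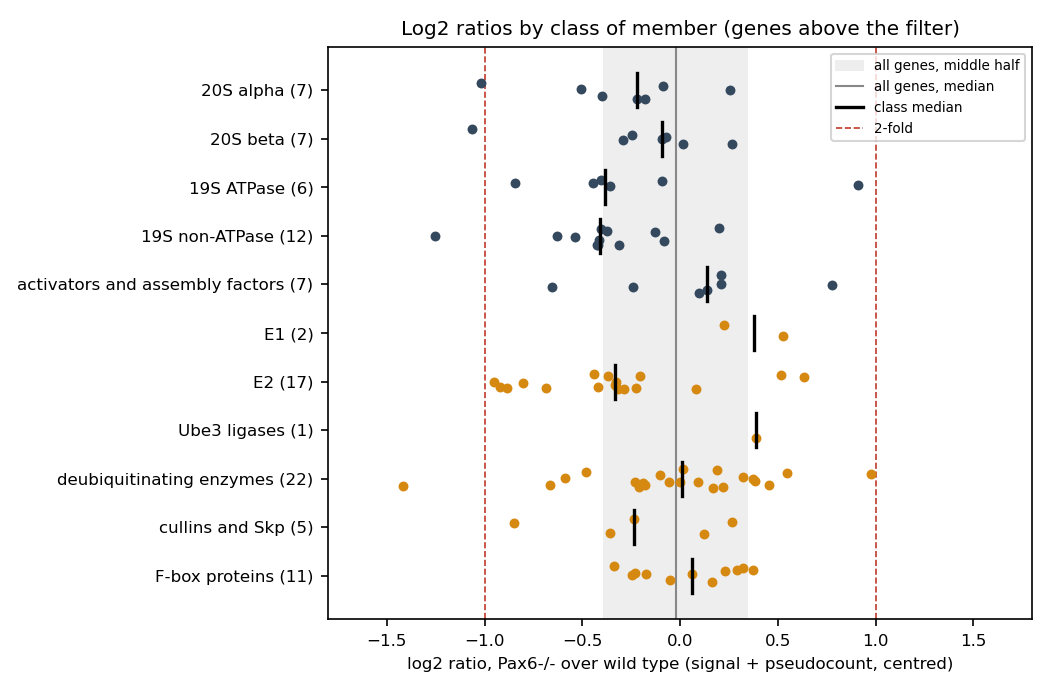
Log2 ratios (Pax6-/- over wild type) of the members above the filter by class, with the number of genes in brackets; black bars are class medians, the grey band is the interquartile range of all genes and dashed lines mark 2-fold. The 19S and E2 medians, between −0.41 and −0.33, lie left of the medians of the other classes, 4 points lie past 2-fold on the lower side and 0 on the higher side.

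Agreement between probe sets gives the only internal check on these values. For 21 members 2 or more probe sets passed the filter, and the brightest pair had the same sign in 14 and opposite signs in 7, a share of same signs of 66.7% against 54.1% of 894 genes over the whole array. The log2 ratios of those pairs correlated with r = 0.18 across the 21 members and r = 0.10 across all 894 genes. Both are descriptions across genes, whose pairs share the same 2 arrays and their scaling. None of the 4 members past 2-fold had another probe set on the array.

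A further 23 members were below the filter, 5 of them proteasome genes, 11 E2 or deubiquitinating enzyme genes, 5 F-box genes, Cul7 and Psmc3ip. Of these, 3 were at least 2-fold apart, a count for which the share among all genes below the filter was not computed. When the filter was dropped, 6.04% of all 8251 genes passed the threshold upward and 6.37% downward, so such differences were common on these arrays. Ube2w had a signal of 241 in Pax6-/- and 27.0 in wild type cortex, Usp29, an imprinted gene, 176 in Pax6-/- and 27.3 in wild type cortex, and Fbxl5, which senses iron, 36.4 in Pax6-/- and 164 in wild type cortex. Each rests on a signal below the pseudocount on 1 array. Ube2v2 shows how uncertain this range is: its probe sets gave 106 in Pax6-/- against 114 in wild type cortex and 221 in Pax6-/- against 12.2 in wild type cortex. Psmd10 was at 85.4 in Pax6-/- and 237 in wild type cortex, Psmd2 at 109 in Pax6-/- and 48.9 in wild type cortex.

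Genes of the pathway outside the symbol rule were taken from a list drawn up with earlier results of these data known. Of 77 measured, 71 passed the filter, 32 above 0 and 39 below, with a median of −0.07, or −0.02 after loess scaling. At least 2-fold apart were 2 of the 71, against 10.5% of all genes, a share not matched for signal. The 2 genes were Otub1, a deubiquitinating enzyme gene, at 540 in Pax6-/- and 155 in wild type cortex, a log2 ratio of 1.35, and Btrc, an F-box protein gene that recognises beta-catenin, at 95.4 in Pax6-/- and 452 in wild type cortex, a log2 ratio of −1.64. The wild type signal of Otub1 and the Pax6-/- signal of Btrc were under the filter level, so each passed only through its other array. The COP9 signalosome, which takes Nedd8 off cullins, had 6 of 9 genes below 0 with a median of −0.30, or −0.19 after loess scaling. Its subunit gene Gps1 was at 2274 in Pax6-/- and 4389 in wild type cortex, a log2 ratio of −0.97, or −0.75 after loess scaling. Cullin partners were divided, with Ddb1 at −0.72, Elob at −0.58, Rnf7 at 0.68 and Vhl at 0.58. After loess scaling these were at −0.43, −0.28, 0.55 and 0.46. Of the shuttle factors, Ubqln1 was at −0.84 and Vcp, the segregase, at −0.37, or −0.71 and −0.16 after loess scaling. The E3 ligases outside the rule were spread around 0, with 12 of 27 above and a median of −0.04.

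The tissue label was checked on the same arrays. All 11 measured cortical markers, among them Neurog2, Eomes, Tbr1, Neurod6, Nes and Tubb3, were above the filter, 9 of them below 0. Eomes was at 167 in Pax6-/- and 2535 in wild type cortex, a log2 ratio of −3.44, Neurog2 at −1.94 and Tbr1 at −1.10. The 2 above 0 were Sox2 at 1.06, from a probe set with the suffix for relaxed selection, and Nes at 0.17. Of markers for other cells, 5 of 10 meningeal genes passed the filter, 4 above 0 and Col3a1 at −0.33. Their summed signals were 3982 in Pax6-/- and 2610.0 in wild type cortex. The largest part of both sums was Col1a2, at 2436 in Pax6-/- and 1828 in wild type cortex, from a probe set with the suffix for relaxed selection. Of the 5 genes, Foxc2 and Col1a1 had wild type signals under the filter level. Over all 10 the sums were 4228 in Pax6-/- and 3091 in wild type cortex, with Lum at −1.08 and Twist1 at −0.95 among those below the filter. For microglia 5 of 8 passed, 4 above 0 and Laptm5 at −1.36, with sums of 3302 in Pax6-/- and 1795 in wild type cortex. The largest part of the Pax6-/- sum was Csf1r, at 1284 in Pax6-/- and 372 in wild type cortex, from a probe set with the suffix for relaxed selection. Over all 8 the sums were 3573 in Pax6-/- and 2059 in wild type cortex. For red cells 5 of 6 passed, with 14101 in Pax6-/- and 16533 in wild type cortex, and for vessels 3 of 7, with 1123 in Pax6-/- and 1178 in wild type cortex. The part of these cells in the members' values was not tested.

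Over the alternatives the proteasome median ran from −0.28 to −0.20 and the enzyme median from −0.23 to −0.11, and the difference between them from −0.13 to −0.04. The 19S median was below that of the 20S core, and the E2 median below that of the deubiquitinating enzymes, in each of the 10 settings. The 20S median was −0.02 after quantile scaling and 0.00 after loess scaling, level with all genes.

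**Figure D5:**
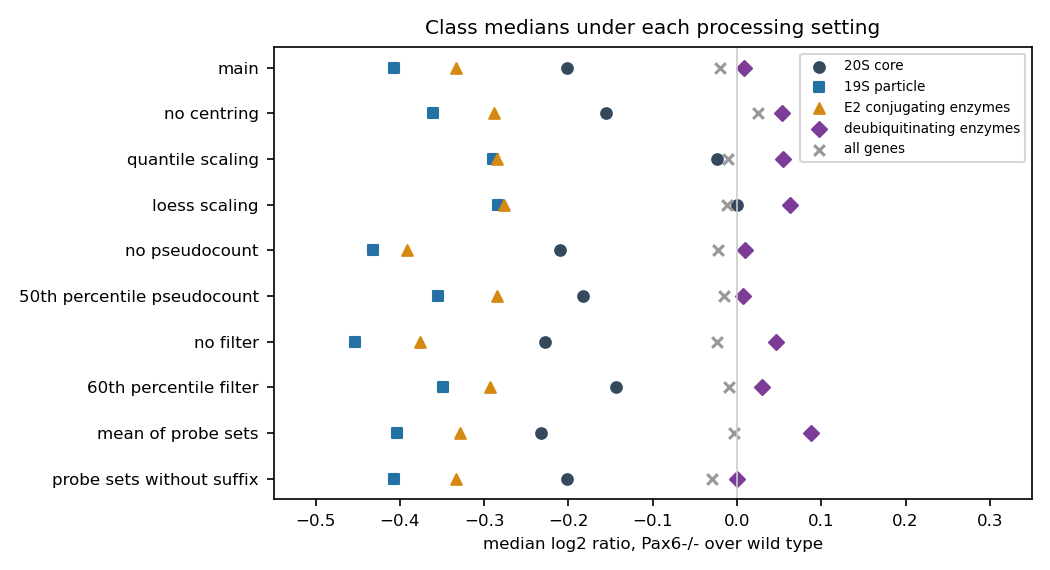
Median log2 ratio (Pax6-/- over wild type) of the 20S core, 19S particle, E2 and deubiquitinating enzyme genes and of all genes under each of 10 processing settings. The 19S and E2 medians lie between −0.45 and −0.28 in every setting, the deubiquitinating medians between 0.00 and 0.09, and the 20S median moves to about 0 under quantile and loess scaling.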

How the data were processed

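Biotin-labelled cRNA made from total RNA was measured on Affymetrix arrays, per the labels' protocols, with 1 Pax6-/- and 1 wild type array. The authors deposited 1 intensity per probe set and array, a linear MAS5 signal; MAS5 is named in the submitters' processing notes, with version, scaling target and present calls not given in the sources used here. Between arrays, the 2% trimmed mean was 500.2 on both arrays, with medians of 284 (Pax6-/-) and 237 (wild type). Precision is limited by the number of arrays.

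Of 12488 probe sets, 66 were controls. GEO's platform annotation gave 1 symbol for 10855, several for 396 and none for 1237; 10839 matched RefSeq's mouse gene table (GRCm38.p6). Log2 values were taken after adding the 25th percentile of all signals, ratios were centred on their median over probe sets at or above the 40th percentile of mean log2 signal (a shift of 0.05), and a difference of 2-fold was the threshold. The members, the gene lists and the settings were chosen with earlier results of these data known. Genes named are members past 2-fold, the highest, lowest and brightest of each class, members whose probe sets differ in sign by over 1, and a list of well-known ones; others are marked, or stand as further class members chosen after their values were seen. The technical spread is the SD of the difference between a gene's 2 brightest probe sets divided by the square root of 2. Alternatives were no centring, quantile or loess scaling (fraction 0.4, 3 iterations), no pseudocount, with a floor at the 1st percentile, a pseudocount at the 50th percentile, no filter, a filter at the 60th percentile, the mean of probe sets, probe sets without a suffix, and thresholds of 1.5-fold and 3-fold. The steps were tested on simulated data with planted changes larger than that of any member above the filter and with no planted trend with signal. That simulation therefore does not show how well small differences, or the removal of a trend by loess scaling, are recovered. Loess used statsmodels 0.14.6, with tables in pandas 2.3.3 and arithmetic in numpy 2.4.6 under Python 3.11.15; matplotlib 3.10.9 drew the figures.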

Additional observations from a re-analysis of the deposited data

How the results depend on the processing

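With 1 array a genotype, no leave-out or test was possible. A median counted as moved only if it shifted by more than a set limit, 0.11 for each list and 0.16 for their difference. This limit was set from the spread between probe sets over all genes and treats the genes of a list as independent. It is therefore a tolerance and not an error of the difference between genotypes. No paired analysis was possible because each genotype has 1 array. The proteasome and enzyme medians and their difference stayed within that limit under all 9 alternatives to scaling, pseudocount, filter and probe set choice. Within it, loess scaling still took the enzyme median from −0.21 to −0.11. The numbers of members past the threshold did depend on the processing. Against 0 higher and 4 lower, there were 1 higher and 3 lower without centring, and 2 higher and 7 lower without a pseudocount. With no filter 2 were higher and 6 lower. The other settings at 2-fold gave 0 higher. In these, 3 were lower under quantile scaling and 3 under loess scaling. The 50th-percentile pseudocount gave 1 lower and the stricter 60th-percentile filter 2. The mean of probe sets gave 5 lower, and probe sets without a suffix gave 3. With 1.5-fold as threshold 4 were higher and 15 lower, and at 3-fold 0 were lower. Psma3 was past 2-fold in 4 of the 9 settings that measured it, Psmb3 in 7 of 10 and Psmd12 in 7 of 8, missing only with the 50th-percentile pseudocount, and the mean of probe sets or probe sets without a suffix added Fbxw5. Under quantile and under loess scaling Psma3, at −0.83, and Psmb3, at −0.88, fell short of 2-fold, while Ube2d3 passed it. Over all genes the counts, higher and lower, were 447 and 437 without a pseudocount (7.99% and 7.81%) and 90 and 128 with the 50th percentile (1.61% and 2.29%). With no filter they were 498 and 526 (6.04% and 6.37%), and with the 60th-percentile filter 97 and 114 (2.49% and 2.92%). At 1.5-fold they were 785 and 844 (14.1% and 15.1%), and at 3-fold 58 and 68 (1.04% and 1.22%). For named genes 320 log2 ratios were recomputed, and not all of them were free to move. A gene with 1 probe set keeps its value under the mean of probe sets. Dropping the centring or changing the filter shifts every gene by the same amount. Of the 320, 315 moved by less than the technical spread, which is 0.72 for dim genes, and 5 by more. The 5 were of Fbxw5, Ube2k and Ube2d2a, whose probe sets disagree, and Ube2k turned to 0.52 with probe sets without a suffix. The cause was not tested. Dim signals limit all ratios that rest on a signal near 81.5.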
